A study of Mus musculus with 8 samples.

Results

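Genes of cumulus and granulosa cells were examined in the oviduct of mice given genistein (Gen) as neonates. The 10 genes were Inha, Amh, Amhr2, Fshr, Lhcgr, Nr5a1, Nr5a2, Ptx3, Has2 and Tnfaip6, and they were found as the probes carrying those names on an Agilent whole mouse genome array, 14 probes in all and 10 of the 27670 gene names measured. CD-1 female mice received, on each day from PND1 to PND5, a subcutaneous injection of corn oil alone (control, n = 4) or of Gen at 50 mg/kg/day in corn oil (Gen, n = 4). Superovulation and mating took place when the mice were 6–8 weeks old, and the oviducts were taken on GD2, at 48 hr after hCG. Embryos were removed from the oviducts, and the methods do not say that cumulus masses were removed from the GD2 tissue. The methods call the 4 arrays of a group independent replicates, and state that both oviducts of 1 mouse made a replicate only for the RT-PCR of adult tissue.

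Granulosa cells line the ovarian follicle, and those around the oocyte, the cumulus cells, leave the follicle with it at ovulation and enter the oviduct. Granulosa cells secrete inhibin and anti-Müllerian hormone and carry the receptors for FSH and LH. The orphan nuclear receptors Nr5a1 (SF-1) and Nr5a2 (LRH-1) drive steroidogenic genes in them. After the LH surge the cumulus cells spread apart in a hyaluronan matrix, which Has2 synthesizes and the proteins of Tnfaip6 and Ptx3 cross-link. These cells are of ovarian origin, and of them the cumulus cells pass into the oviduct. The genes are not, as a set, markers of the oviduct wall, nor are they markers of cumulus cells alone. Several are also expressed elsewhere, such as Amhr2 in mesenchyme of Müllerian duct origin and Has2 in connective tissue.

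The controls shared 1 slide and the Gen-treated mice shared another, so a slide effect and a treatment effect cannot be told apart in any value below. The scanner software found 25391–28949 probes well above background per control array and 29539–31486 per Gen array. After scaling of each array to a common 75th percentile, the lowest signal called well above background was 28.5–65.9 on control arrays and 14.5–20.9 on Gen arrays, so a dim gene was easier to detect in the Gen group. The summed signal of 10 oviduct epithelial markers, with Ovgp1 (oviduct glycoprotein, saturated on 1 array) the brightest, was 1111470–1260450 in controls and 954212–1321030 in Gen-treated mice. These are scaled signals and do not measure the amount of tissue. Whether more RNA from a cell type reflects more of those cells or more RNA per cell cannot be told apart in whole tissue.

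Of the 10 genes, 5 had higher average signals in Gen-treated mice by more than 2-fold or a bound above 2-fold (Inha, Amh, Amhr2, Lhcgr and Nr5a2), and 3 of these, Inha, Lhcgr and Nr5a2, passed the test. The other 5 (Fshr, Nr5a1, Ptx3, Has2 and Tnfaip6) had differences within the spread between arrays. A gene was called when its adjusted p in limma, over all 41173 probes tested, was under 0.05 and its probe passed the background criterion, which was a signal well above background on every array of 1 group or of both, and a gene with 2 probes was represented by the brighter one. All 10 genes met that criterion, although Amh and Lhcgr did so through the Gen arrays alone, since 0 control arrays passed for either, and 1 control array passed for Fshr. By this rule 3 of 10 were called higher and 0 lower, beside 3.16% called higher and 2.18% called lower among the 19247 genes that met it. With probes that failed the criterion left out of the fit, 0 of the 10 were called, against 0.67% higher and 0.546% lower among the same genes. In that limma fit 5 of the 10 had an unadjusted p under 0.05, all higher, beside 5612 of the 28967 probes that met the criterion. The methods' t-test also gave 0 after adjustment and 5 before it, and 11364 probes over the array had an unadjusted p under 0.05. Groups that did not overlap, with every Gen array above every control array, occurred for 3 of 10 genes (Inha, Amh and Nr5a2) and for 6.39% of the 19247 genes. For Amh the control signals were not well above background, so its separation is not established. The median log2 fold change over those genes was 0.03, with quartiles of −0.15 and 0.24.

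**Figure D1:**
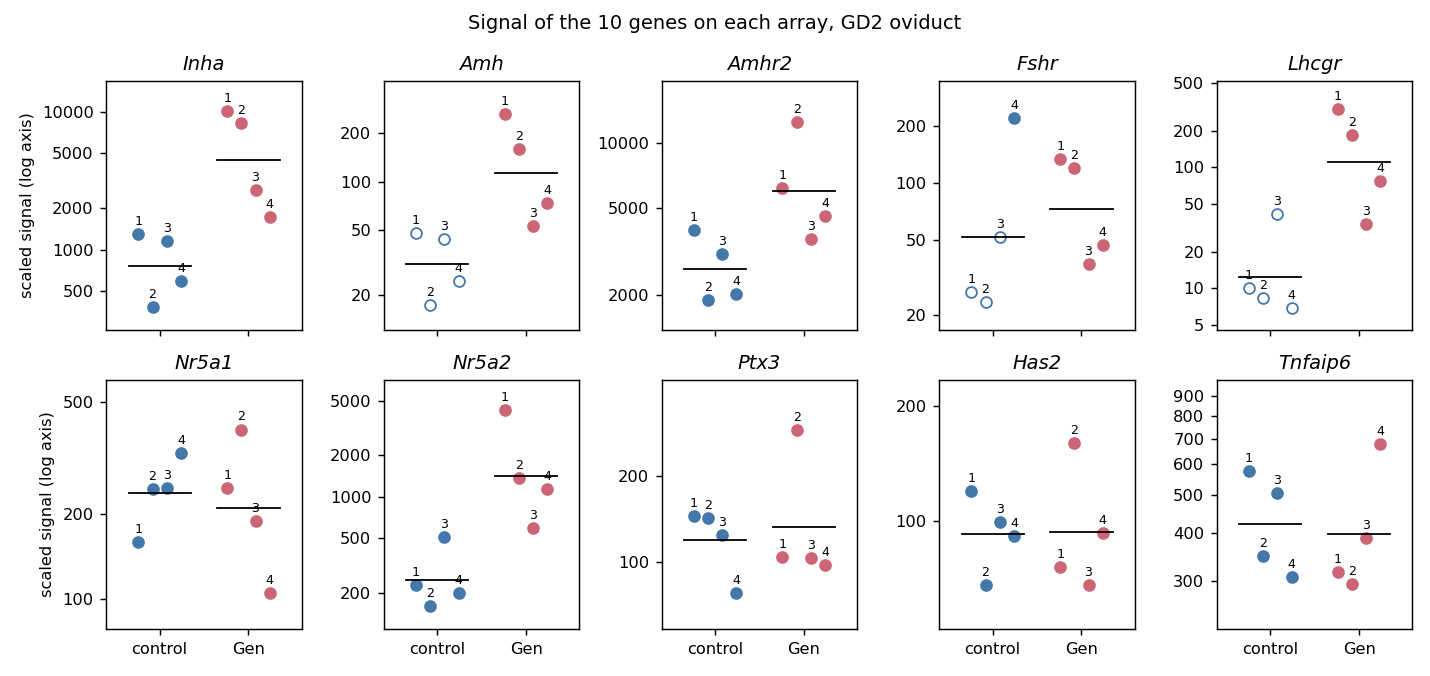
Scaled signal of each gene's representative probe (vertical log axes, with a different range in each panel) on the 4 control and 4 Gen arrays. Numbers are replicate numbers, filled points were well above background, open points were not, and lines are means of log2 signals. Gen 1 and Gen 2 lie highest for Inha, Amh and Lhcgr, and the groups are interleaved for Nr5a1, Has2 and Tnfaip6.

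Inha encodes the alpha subunit of inhibin, the granulosa cell hormone that lowers FSH secretion. Its brighter probe gave signals of 1297, 384, 1149 and 593 on control arrays 1 to 4 and 10141, 8248, 2687 and 1713 on Gen arrays 1 to 4. The lowest Gen array lay above the highest control array, and Gen 1 and Gen 2 were several times higher than Gen 3 and Gen 4. The difference was 5.80-fold (log2 fold change 2.54, SE 0.65, n = 4 per group, adjusted p = 0.0319 by limma). The exact permutation test of the 4 against 4 arrays gave p = 0.0286 (2-sided), the smallest value that 70 assignments allow. Its adjusted p was 0.0946 with dim probes left out. A second Inha probe, which does not overlap the first, gave 134, 41.2, 95.3 and 41.3 on control arrays and 1129, 768, 208 and 148 on Gen arrays, with 3 of the 4 control arrays well above background. Its log2 fold change was 2.57 (SE 0.72, adjusted p = 0.0465 by limma), so both probes gave the same size of difference and the same order of the Gen arrays.

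Stretches of transcript that probes of these 5 genes read are shown here because the results rest on 1 probe per gene, or on 2 for Inha. Each line gives the first 30 bases, 5′ to 3′, of a probe of 60 bases as listed in the array files, with its position on the mouse build mm7. Exons and untranslated regions of that build were not used here.
Inha, dimmer probe, chr1:75733574-75733603, plus strand: cccccagcaatggatggggaaggtggggat
Amh, chr10:80597080-80597109, plus strand: aatccgcgctacgggaaccacgtggtgctg
Amhr2, chr15:102440656-102440685, plus strand: atgagtagcttgtttgaactctctgtacag
Lhcgr, chr17:87049223-87049252, minus strand: cacctccaagagtgttaattcagtaactgc
Nr5a2, chr1:136732448-136732477, minus strand: atgcaaagacagtgattctgcatatggcct

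Amh encodes anti-Müllerian hormone, made by granulosa cells of growing follicles. The signals were 48.3, 17.4, 44.4 and 24.3 on control arrays and 263, 159, 53.4 and 73.7 on Gen arrays. No control array was well above background and all 4 Gen arrays were, and the processed signals of the groups did not overlap. However, Gen 3 (53.4) lay under the lowest signal called well above background on control 3 (65.9). Separation of the groups is therefore not established. The level in controls is therefore only a bound, and Amh was at least 2.71-fold higher in Gen-treated mice, where the bound sets the mean of the Gen arrays against the higher of each control array's own signal and its lowest signal called well above background. Under normexp background correction the bound was 1.39-fold. Amh was not called (adjusted p = 0.0547 by limma), and the exact permutation p was 0.0286. Both rest on control signals that were not well above background.

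Amhr2 encodes the type 2 receptor that binds anti-Müllerian hormone. The signals were 3981, 1894, 3064 and 2018 on control arrays and 6223, 12515, 3604 and 4619.9 on Gen arrays. Gen 2 stood highest, and 3 of the 4 Gen arrays lay above every control array. The 2.30-fold difference in means (log2 fold change 1.20, SE 0.41) was not called (adjusted p = 0.0923 by limma), and the exact permutation p was 0.0571.

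Of the receptors for the gonadotropins, Lhcgr was called and Fshr was not, and the difference between their changes was not tested. Lhcgr encodes the LH receptor, which mural granulosa cells gain late in follicle growth and luteal cells keep. Its signals were 10.04, 8.27, 40.7 and 6.87 on control arrays, none well above background, and 304, 186, 34.1 and 76.4 on Gen arrays, all well above background. Gen 3 fell below control 3, the highest of the controls, and the other 3 Gen arrays lay above every control array. Lhcgr was at least 2.77-fold higher in Gen-treated mice, with the bound at 1.66-fold under normexp background correction, and it was called (adjusted p = 0.0292 by limma). That p rests on control signals that were not well above background. The adjusted p by limma was 0.283 with signals raised to a floor and 0.212 under normexp background correction. The exact permutation p was 0.0571, and the adjusted p was 0.0899 with dim probes left out.

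Fshr encodes the FSH receptor of granulosa cells. The signals were 26.5, 23.3, 51.9 and 221 on control arrays and 133, 119, 37.2 and 47.2 on Gen arrays. Control 4 gave the highest value of all 8, and it was the only control array well above background. The log2 fold change was 0.49 with an SE of 0.76 (adjusted p = 0.722 by limma), so no difference was detectable.

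Of the pair of NR5A nuclear receptors, Nr5a2 was called and Nr5a1 was not, and the difference between their changes was not tested. Nr5a2 gave 229, 161, 514 and 199.8 on control arrays and 4285, 1360.5, 592 and 1143 on Gen arrays, all well above background. The groups did not overlap, although Gen 3 was close to control 3. The difference was 5.68-fold (log2 fold change 2.51, SE 0.61, adjusted p = 0.0268 by limma), with an exact permutation p of 0.0286 and an adjusted p of 0.0849 with dim probes left out. Nr5a1 gave 159, 246, 247 and 328 on control arrays and 248, 399, 189.5 and 105 on Gen arrays. The highest and the lowest of the 8 values were both Gen arrays, and the log2 fold change was −0.17 (SE 0.40, adjusted p = 0.821 by limma). The direction for Nr5a1 turned positive without scaling between arrays (0.07) and for the mean of its probes (0.18). Its other probe was not well above background on any control array and was so on 2 Gen arrays, and no fold is given for it.

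The cumulus expansion genes had levels in both groups that overlapped widely. Has2 encodes the hyaluronan synthase of the cumulus matrix. Its brighter probe gave 119.6, 68.0, 99.3 and 91.5 on control arrays and 75.9, 160.2, 68.1 and 93.2 on Gen arrays. Gen 2 was the highest of the 8 arrays, and the group means were nearly equal (log2 fold change 0.02, SE 0.29, adjusted p = 0.98 by limma), with a negative sign under quantile normalization (−0.07), normexp background correction (−0.10) and the mean of its probes (−0.28). The dimmer Has2 probe, aimed at another transcript record, was well above background on 1 control array and 3 Gen arrays, with a log2 fold change of −0.58 (SE 0.65).

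Tnfaip6 encodes TSG-6, which moves the heavy chains of inter-alpha-inhibitor onto hyaluronan. The signals were 577, 347, 508 and 307 on control arrays and 317, 294, 387 and 679 on Gen arrays. Gen 4 was the highest and Gen 2 the lowest of the 8, and the log2 fold change was −0.09 (SE 0.31, adjusted p = 0.886 by limma), or 0.15 without scaling between arrays.

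Ptx3 encodes pentraxin 3, which binds TSG-6 in the matrix. Its brighter probe gave 145, 143, 124 and 77.7 on control arrays and 104, 289, 103 and 97.6 on Gen arrays, with a log2 fold change of 0.15 (SE 0.38, adjusted p = 0.839 by limma) that was −0.03 under normexp background correction. The dimmer probe gave 56.6, 143, 124 and 53.5 on control arrays and 116, 315, 104 and 110.5 on Gen arrays, with a log2 fold change of 0.74 (SE 0.47, adjusted p = 0.354 by limma). Gen 2 stood apart from the other Gen arrays on both probes. The probes are not independent, since the end of the brighter one and the start of the dimmer one share the 15 bases tgtttatcttggcaa on chromosome 3, and they differed most on control 1 (145 against 56.6).

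**Figure D2:**
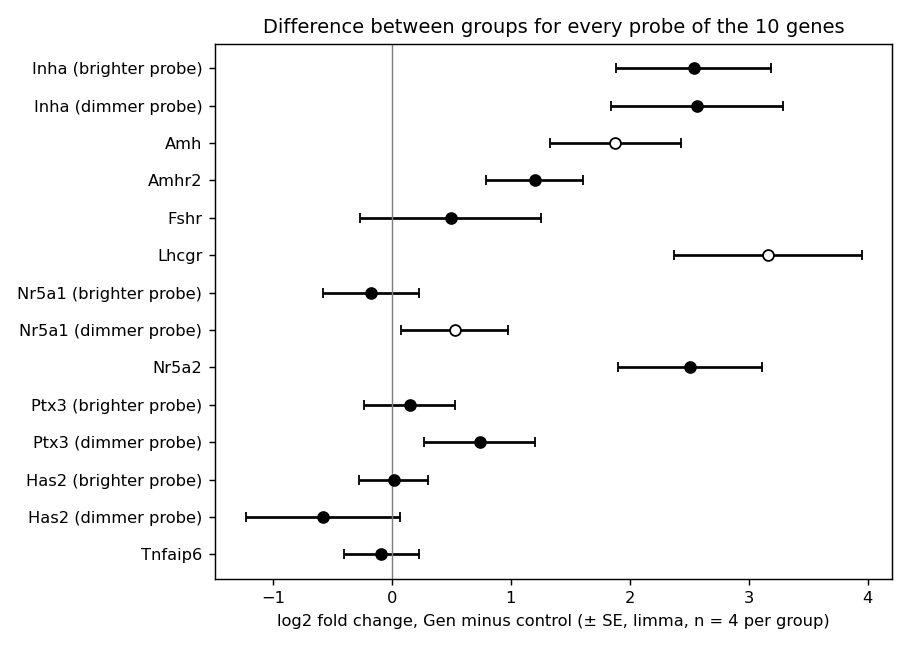
Log2 fold change, Gen minus control, of all 14 probes of the 10 genes (horizontal axis), with SE bars from limma and n = 4 per group. Open points mark probes not well above background on any control array, whose fitted value is not a measured fold. Both Inha probes and the Nr5a2 probe lie between 2.51 and 2.57, and the values of Tnfaip6 and of the brighter Nr5a1 and Has2 probes lie between −0.17 and 0.02, while the dimmer Nr5a1 and Has2 probes lie at 0.53 and −0.58.

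The calls for Inha, Lhcgr and Nr5a2 depended on single arrays. All 3 were called without control 3, Inha alone without Gen 4, and 0 of 10 without control 1, control 2, control 4, Gen 1, Gen 2 or Gen 3, by limma in each case, while 4 of the 10 without control 2 and 5 of the 10 without any other array kept an unadjusted p under 0.05. In these fits 9869–11822 probes over the array had such a p. Over the 8 fits without 1 array the adjusted p was 0.0251–0.0828 for Inha, 0.0226–0.0787 for Lhcgr and 0.0241–0.0693 for Nr5a2, and the log2 fold change was 2.14–2.99 for Inha and 1.97–2.92 for Nr5a2.

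The order of the arrays within a group recurred among the genes. Gen 1 was the highest of the 8 arrays for Inha, Amh, Lhcgr and Nr5a2, and Gen 2 for Amhr2, Nr5a1, Ptx3 and Has2. Orders were counted only over the 7 genes measured well above background on all 8 arrays (Inha, Amhr2, Nr5a1, Nr5a2, Ptx3, Has2 and Tnfaip6), since Amh and Lhcgr have no measured order among controls. Gen 1 and Gen 2 both lay above Gen 3 and Gen 4 for 5 of the 7, compared with 18.3% of the 16799 genes measured on all arrays, and control 1 and control 3 both lay above control 2 and control 4 for 5 of the 7, compared with 17.3%. Both orders held together for 3 genes, Inha, Amhr2 and Nr5a2, and for 1.53% of all genes so measured. These orders were picked after the values were seen and are given as descriptions, without a test.

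Markers of other cell types moved with these arrays. Of 16 oocyte and early embryo genes, 15 had a probe and 14 met the background criterion. Their summed signal was 7338, 907, 6830.4 and 892 on control arrays and 14854, 48477, 8960.4 and 7057 on Gen arrays, which is the same order of control 1 and control 3 over control 2 and control 4 and the same leading pair of Gen arrays. Zp3, a zona pellucida protein of the oocyte, followed this order with 649, 111, 827 and 122 on control arrays and 1404, 4516, 855 and 641 on Gen arrays. Only 5 of the 14 were well above background on all 8 arrays, with log2 fold changes of 1.59–3.16. The rest of the 14 met the criterion through the Gen arrays alone, which favours a positive sign. All 14 had a positive log2 fold change (median 2.62), and this count is a description only. The other gene with a probe had one of −0.67 (SE 0.90). Of the 15, 1 was called, beside 3.16% of all genes called higher. It was Figla, a transcription factor of the oocyte, at least 1.71-fold higher in Gen-treated mice (adjusted p = 0.0494 by limma). Figla exceeded background on 0 control arrays and so met the background criterion through the Gen arrays alone, its groups overlapped (38.8 on control 1 and 29.9 on Gen 4), and its adjusted p was 0.117 with dim probes left out. The part of oocyte RNA in the results above was not tested.

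The list of luteal and steroidogenic genes held 7 of the 19 listed genes that were called. Its summed signal was 72022, 74861, 116782 and 74840.4 on control arrays and 307647, 269434, 119783 and 141773 on Gen arrays, and control 3 was nearly level with Gen 3. Of 16 genes, 7 rose and 0 fell (median log2 fold change 1.29 over 16), beside the 3.16% of all genes called higher. With dim probes left out 1 of the 16 was called, Prlr (adjusted p = 0.0486 by limma), beside 0.67% of all genes, and the other 6 had adjusted p-values of 0.0627–0.111. Cyp11a1, the side-chain cleavage enzyme that starts steroid synthesis, gave 238, 354, 3903 and 271 on control arrays and 23785, 21029, 4444 and 8709.8 on Gen arrays (log2 fold change 4.43, SE 0.96, adjusted p = 0.0236 by limma). Hsd3b1 and Hsd3b6, which make progesterone from pregnenolone, differed by 4.18 and 4.16 on the log2 scale (adjusted p = 0.0246 and 0.0256 by limma). Probes of such close paralogs can share signal. Mgarp, a mitochondrial protein of steroidogenic cells, differed by 4.13, Prlr, the prolactin receptor, by 1.73, and the electron carriers of the mitochondrial P450 enzymes Fdxr and Fdx1 by 1.37 and 1.20, also on the log2 scale. Star, which brings cholesterol into mitochondria, had a log2 fold change of 1.80 (SE 0.64) and was not called (adjusted p = 0.103 by limma), and Akr1c18, which inactivates progesterone, had one of −0.39 (SE 0.66). Whether the signals of Inha, Lhcgr and Nr5a2, which luteal cells also express, came from such cells was not tested.

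**Figure D3:**
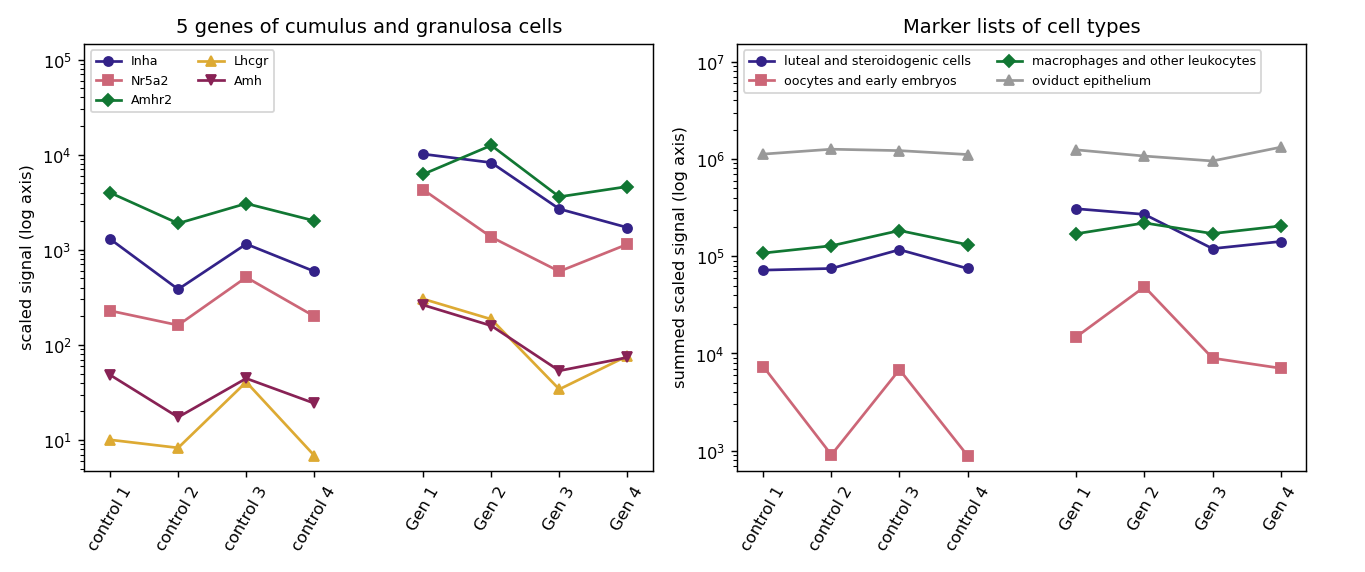
Left, scaled signals of Inha, Nr5a2, Amhr2, Lhcgr and Amh on each array (log axis); right, summed scaled signals of 4 marker lists on each array (log axis). Oocyte markers, Inha, Amhr2 and Nr5a2 are higher in control 1 and control 3 than in control 2 and control 4 (Amh and Lhcgr were not well above background on any control array), luteal markers are highest in Gen 1 (307647) and Gen 2 (269434), and epithelial markers range from 954212 to 1321030.

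In a list of 16 further granulosa and follicle genes, 3 were called higher and 0 lower, beside 3.16% and 2.18% of all genes, and with dim probes left out 1 was called, beside 0.67% higher. In this list 13 of the 15 that met the background criterion had a positive sign (median log2 fold change 0.21). Of the 15, 14 were well above background on all 8 arrays, and Esr2 met the criterion through the Gen arrays alone. Hsd17b1, which makes estradiol in granulosa cells, gave 143, 103, 152 and 94.4 on control arrays and 1589.6, 1180.2, 463 and 218 on Gen arrays (log2 fold change 2.45, SE 0.59, adjusted p = 0.0259 by limma, and 0.0826 with dim probes left out). Runx2, a transcription factor induced in ovulating follicles and also present in mesenchyme, gave 378–558 in controls and 931–2409.8 in Gen-treated mice (log2 fold change 1.77, SE 0.30, adjusted p = 0.0236 by limma, and 0.0409 with dim probes left out). Esr2, the estrogen receptor of granulosa cells, was not well above background on any control array and was at least 3.16-fold higher in Gen-treated mice (adjusted p = 0.0286 by limma, and 0.0885 with dim probes left out). Cyp19a1, the aromatase of granulosa cells, was well above background on 3 Gen arrays and no control array, at least 1.77-fold higher, and so was not counted as called (adjusted p = 0.0236 by limma). Foxl2, a defining transcription factor of granulosa cells, had a log2 fold change of 0.02 (SE 0.27), with 101–152 in controls and 89.3–213 in Gen-treated mice.

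In the list of ovulation and cumulus expansion genes, 0 of 16 were called higher and 1 lower, beside 3.16% and 2.18% of all genes. In a list this short these counts are near those shares. The gene called lower was Pgr, the progesterone receptor, from 324–414 in controls to 172–282 in Gen-treated mice (log2 fold change −0.64, SE 0.18, adjusted p = 0.046 by limma, and 0.109 with dim probes left out). Ptgs2, the prostaglandin synthase that cumulus cells induce, gave 262, 69.3, 70.8 and 51.9 on control arrays and 37.2, 23.6, 34.8 and 41.8 on Gen arrays, without overlap, and was not called (adjusted p = 0.0898 by limma). Areg, an EGF-like factor of the ovulating follicle, had a log2 fold change of 0.36 (SE 0.39). The median over the list was 0.09, with 8 of 15 genes positive. Of the positive genes, Ereg and Sult1e1 met the background criterion through the Gen arrays alone, as did Ptgs2 among the negative ones.

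The hyaluronan matrix list, which holds the partners of Has2, Tnfaip6 and Ptx3, had 3 of 18 genes called higher and 0 lower, and 1 with dim probes left out, beside the same shares of all genes (median log2 fold change 0.28, with 9 of 15 positive). Itih2, a heavy chain of inter-alpha-inhibitor that Tnfaip6 transfers to hyaluronan, gave 263, 249.6, 247 and 91.0 on control arrays and 637, 1207, 1205 and 1575 on Gen arrays (log2 fold change 2.49, SE 0.41, adjusted p = 0.0236 by limma, and 0.0388 with dim probes left out). Itih3, another heavy chain, differed by 1.01 on the log2 scale (adjusted p = 0.0249 by limma, and 0.0750 with dim probes left out), and Cd44, the hyaluronan receptor, by 0.83 (adjusted p = 0.0265 by limma, and 0.0804 with dim probes left out). For Itih2 and Cd44, Gen 4 was the highest array, unlike Inha, Amhr2 and Nr5a2. Cd44 is also expressed by leukocytes, and 3 of 11 macrophage and leukocyte markers were called higher, beside the same 3.16% (Adgre1, Ptprc and Itgam, log2 fold changes 0.66, 0.72 and 0.74; with dim probes left out, Itgam alone), with summed signals of 107830, 128119, 183834 and 131502 on control arrays and 170416, 219993, 170974 and 204728 on Gen arrays. The part of leukocyte RNA was not tested.

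Of 19 genes of AMH, inhibin and activin signalling, 0 were called in either direction (median log2 fold change 0.14 over 18). Of 16 genes of gonadotropin receptor signalling 0 were called (median 0.03). Over all genes 3.16% were called higher and 2.18% lower, and in lists this short 0 calls is near those shares. Every Gen array lay above every control array for 2 of the 18 and 1 of the 16, beside 6.39% of all genes. Smad4, the shared SMAD, had a log2 fold change of 0.28 (SE 0.12), and Gnas, the stimulatory G protein of both gonadotropin receptors, one of −0.12 (SE 0.12). Among 13 partners and regulators of the NR5A receptors 1 was called higher, beside 3.16% of all genes. The gene was Gata4, a cofactor of Nr5a1 in gonadal cells. Its log2 fold change was 0.98 (SE 0.27, adjusted p = 0.0425 by limma, and 0.107 with dim probes left out). Gata4 gave 36.4, 65.0, 40.9 and 40.4 on control arrays, 2 of the 4 well above background. Its signals were 83.45, 112, 57.2 and 109 on Gen arrays, and Gen 3 lay below control 2. All 4 Gen arrays were well above background, so Gata4 met the background criterion through them alone. Nr0b1, the DAX1 repressor, had a log2 fold change of −0.16 (SE 0.54). Over all 13 lists 19 genes were called by limma, 0 without control 1, Gen 1, Gen 2 or Gen 3, and 4 with dim probes left out.

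Co-variation was measured on log2 signals after each group's mean was subtracted, so that the difference between groups could not enter it, for the 7 genes well above background on all 8 arrays (Inha, Amhr2, Nr5a1, Nr5a2, Ptx3, Has2 and Tnfaip6). Means of 4 marker lists were taken over each list's genes well above background on all 8 arrays (5 oocyte, 15 luteal, 9 leukocyte and 10 epithelial genes). The 21 pairs of genes and their 28 pairings with these means made 49 correlations, tested exactly over the 576 orders of arrays within groups. None passed Benjamini-Hochberg adjustment (lowest adjusted p 0.17 for Pearson's r and 0.306 for Spearman's rho).

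Amhr2 and Has2 had an r of 0.89 (exact p = 0.0139) and a rho of 0.90 (exact p = 0.0243), and r was 0.57 without the 2 arrays farthest from the median of Amhr2, Gen 2 and control 1. Inha and Amhr2 had an r of 0.78 (exact p = 0.0503) and a rho of 0.80 (exact p = 0.0625), and r was 0.79 without Gen 4 and control 2. Inha and Nr5a2 had an r of 0.71 (exact p = 0.0938) and a rho of 0.80 (exact p = 0.0625), and r was 0.79 without the same arrays. Among the matrix genes, Ptx3 and Has2 had an r of 0.69 (exact p = 0.116) and a rho of 0.40 (exact p = 0.42), with r 0.36 without Gen 2 and control 4. Ptx3 and Tnfaip6 had an r of −0.19 (exact p = 0.649) and a rho of −0.10 (exact p = 0.885), with r −0.09 without the same arrays. Has2 and Tnfaip6 had an r of 0.07 (exact p = 0.882) and a rho of 0.20 (exact p = 0.733), with r 0.61 without Gen 2 and Gen 3.

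The strongest value was negative. Nr5a1 and Tnfaip6 had an r of −0.90 (exact p = 0.00347) and a rho of −0.90 (exact p = 0.0243), and r was −0.84 without Gen 4 and Gen 2, with an adjusted p of 0.17. Nr5a1 was high where Tnfaip6 was low on Gen 2, and the reverse on Gen 4. The 2 NR5A receptors had an r of 0.20 (exact p = 0.748) and a rho of 0.30 (exact p = 0.559), with r 0.27 without Gen 4 and Gen 2.

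With the marker lists, Amhr2 had an r of 0.88 with the oocyte mean (exact p = 0.0104), with a rho of 0.80 (exact p = 0.0625) and an r of 0.78 without Gen 2 and control 1. With the luteal mean Amhr2 had an r of 0.71 (exact p = 0.0747), with a rho of 0.80 (exact p = 0.0625) and an r of 0.96 without the same arrays. Inha had an r of 0.81 with the oocyte mean (exact p = 0.0330), with a rho of 0.80 (exact p = 0.0625) and an r of 0.72 without Gen 4 and control 2. With the luteal mean Inha had an r of 0.79 (exact p = 0.0851), with a rho of 0.60 (exact p = 0.212) and an r of 0.82 without the same arrays. Nr5a2 had an r of 0.82 with the luteal mean (exact p = 0.0139), with a rho of 0.80 (exact p = 0.0625) and an r of 0.67 without Gen 1 and control 3, and with the oocyte mean it had an r of 0.44 (exact p = 0.286), a rho of 0.60 (exact p = 0.212) and an r of 0.48 without the same arrays. None of these values passed adjustment over the 49 correlations.

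**Figure D4:**
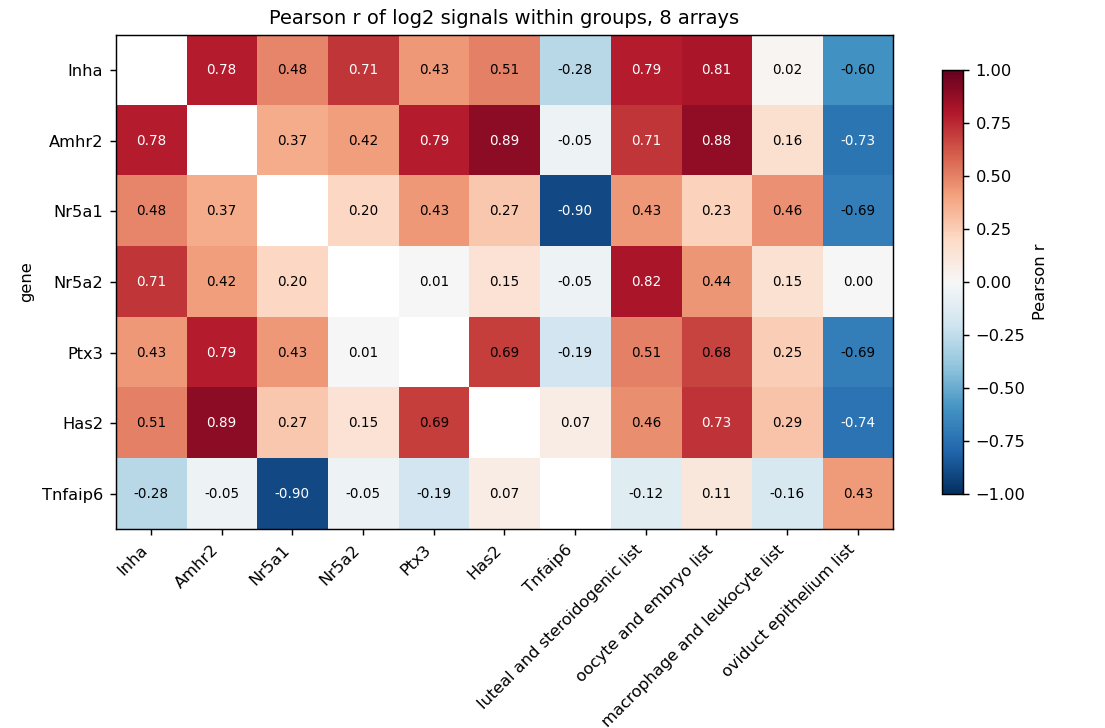
Pearson r of log2 signals within groups over 8 arrays, between 7 genes (rows) and the same genes and the means of 4 marker lists (columns). Each mean is over the list's genes well above background on all 8 arrays. Inha and Amhr2 have r of 0.81 and 0.88 with the oocyte list and 0.79 and 0.71 with the luteal list, Nr5a2 has 0.44 and 0.82 with the same lists, and Nr5a1 and Tnfaip6 have −0.90.

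The genes most like each member by the same measure were searched among 14245 genes named through the RefSeq tables and well above background on all 8 arrays, and with 8 arrays and so many genes high values arise for any gene, so they are listed without a test. For Nr5a2 they were Star (r 0.98), Mmel1 (0.97) and Sc5d (0.96). For Nr5a1 they were Tspan4 (0.99), Foxl2 (0.98) and Ms4a1 (0.98), and Foxl2 belongs to the granulosa list. For Inha they were Micall2 (0.94), Slc18a2 (0.94) and Arv1 (0.93), and for Amhr2 E330034G19Rik, Fbxw16 and Fbxw21 (0.98–0.99). For Ptx3 they were Tubg2 (0.99), Akr1c18 (0.98) and Nek8 (0.97), for Has2 Ccbe1 (0.98), Acaa2 (0.97) and Strn (0.97), and for Tnfaip6 Cep76, Atp6ap2 and Ppp1r12b (0.99–1.00). For the mean of the 7 genes they were Miox (0.98), Npm2 (0.97), an oocyte nucleoplasmin, and Aldh1a1 (0.96).

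The promoters of the genes were read for sites of the NR5A receptors and of CREB, which acts below the gonadotropin receptors. RefSeq windows of assembly GRCm38.p6, from 250 bases before to 50 after the start, matched 7 of the 10 genes (Inha, Amhr2, Fshr, Lhcgr, Nr5a2, Ptx3 and Tnfaip6), with a pair of windows for Nr5a2. The NR5A motif CAAGGNCA, searched on both strands, was in the Amhr2 window and in none of the other 6 genes, and 7.64% of 27025 genes had it in a window. The match starts 232 bases before the Amhr2 start, and the line shows it in capitals to place it for comparison with the values above.
Amhr2 promoter, GRCm38.p6, chr15:102445124-102445153, plus strand: gcaccttcttcCAAGGTCAgtaggggtaga
The CREB motif TGACGTCA, which reads the same on both strands, was in 0 of the 7 genes and in 2.03% of all genes. A match describes letters in the window and does not show binding, and no match says only that these letters are not in it.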

How the data were processed

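RNA of 8 oviduct samples (4 control, 4 Gen) was labelled with 1 dye (Cy3) and hybridized to Agilent whole mouse genome arrays. The authors deposited one scanner file per array, made with Agilent Feature Extraction (9.5 per the labels), and its processed signal, the value used, is an intensity on a linear scale adjusted for background and trend, not scaled between arrays. The values in the deposited series table are identical intensities. The Rosetta Resolver step was not applied here. The depth of an array has no count, and the number of arrays limits the precision.

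The 1639 control spots and outlier spots were left out, log2 signals were averaged per probe, and each array's 75th percentile was set to a common level. Groups were compared by limma 3.58.1 (R 4.3.3), Benjamini-Hochberg adjusted, after the steps were tested on simulated data. Plots used matplotlib 3.10.9. Alternatives were other scalings (quantile, none), normexp, removal of dim probes, a floor, inclusion of outlier spots, an intensity trend, a replicate block, the methods' t-test, gene means, and each array left out. Gene names came from RefSeq tables of GRCm38.p6 by accession (22951 probes) or name (9768), with 8455 kept as in the files. The genes named were the members, list genes called or among the brightest 4 of a list, and the 3 most like each member. Areg, Cyp19a1, Esr1, Nr0b1 and Ptgs2 were named after their values were seen. The members and lists were chosen with earlier results of these data known. The sequence of 1 probe is not reported here.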

Additional observations from a re-analysis of the deposited data

Results flagged for a closer look

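Both Ptx3 probes had a Gen array far from the other 3. The brighter probe gave 289 on Gen 2, where the nearest other Gen array gave 104, a gap of 0.943 of the group's range in log2 signals. The dimmer probe gave 315 on Gen 2, where the nearest gave 116, a gap of 0.907 of the range in log2 signals. The probes share 15 bases, so they are not separate observations. In all, 25 groups of 4 arrays were examined in this way, and chance alone marks about 1 group in 20.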

How the results depend on the processing

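The count of the 10 genes called, 3 by limma as reported, was 0 under quantile normalization, normexp background correction, dim probes left out, a floor on low signals, the methods' t-test and the replicate block, with 4 genes (normexp) or 5 genes (the others) at an unadjusted p under 0.05, and 0–3 with 1 array left out. It was 4 without scaling, with an intensity trend and for gene means, where Amh was called too, and 3 with outlier spots kept. From quantile normalization to the replicate block, 5612–11364 probes over the array had an unadjusted p under 0.05. Over the array, 6674 probes were called as reported (892 higher, 5782 lower; 819 and 635 among those meeting the background criterion), 178 under quantile normalization (97 higher, 81 lower), 640 without scaling (467, 173), 251 under normexp (103, 148), 321 without dim probes (175, 146), 23 with a floor, 0 by the methods' t-test (11364 unadjusted), 1 under the replicate block and 1–7130 with 1 array left out. Of the listed genes 19 were called, 0 under quantile normalization, the floor, the t-test and the block (50, 49, 41 and 37 unadjusted), 4 under normexp and without dim probes, and 0–15 with 1 array left out. The cause was not tested. Inha, Amh, Amhr2, Lhcgr and Nr5a2 stayed higher in Gen-treated mice under each alternative run. The sign turned for Fshr (−0.033, normexp), Nr5a1 (0.066 without scaling, 0.18 for gene means, −0.48 to 0.16 with 1 array left out; dimmer probe −0.11, normexp), Ptx3 (−0.032, normexp; −0.23 to 0.29), Has2 (−0.065 quantile, −0.10 normexp, −0.28 gene means; −0.24 to 0.17; dimmer probe −1.05 to 0.044) and Tnfaip6 (0.15 without scaling; −0.35 to 0.064). Deviations of same-numbered arrays correlated at −0.08, 0.11, −0.02 and −0.18 over 24920 probes, which gave no sign of pairing by replicate number. Such values cannot exclude pairing. The paper compares Gen-treated mice with control littermates, and the litters of the arrays are not stated. A slide block was not run, since slide equals treatment. Without scaling the median log2 fold change of probes above background was 0.26, against 0.02.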

Other observations

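Genes of structural tissue of the oviduct wall had small median differences. None was called, beside 3.16% higher and 2.18% lower of all genes, and in lists this short 0 calls is near those shares. Of 8 smooth muscle genes 0 were called by limma and 0 had a positive sign (median log2 fold change −0.26), with Acta2 at −0.33 (SE 0.15) and Myh11 at −0.30 (SE 0.18). Of 6 fibroblast genes 0 were called (median −0.07), of 5 mesothelial genes 0 (median 0.16) and of 10 oviduct epithelium genes 0 (median −0.08). Krt19, an epithelial keratin, had a log2 fold change of −0.47 (SE 0.15, adjusted p = 0.0728 by limma) and Esr1, the main estrogen receptor of the oviduct, one of −0.41 (SE 0.13, adjusted p = 0.0793 by limma). For both, every Gen array lay below every control array, and the share of all genes with that order is not given here.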
